A study of Homo sapiens with 8 samples.

Results

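The Notch genes followed here were the ligands JAG1, JAG2 and DLL1, the receptors NOTCH1, NOTCH2 and NOTCH3, the nuclear partners RBPJ and MAML2, and the targets HES1 and HEY1. Every probe set that the array annotation lists with exactly 1 gene symbol for these 10 genes was taken, which gave 28 probe sets of 54613 on the array. The set was selected on earlier results of the same arrays, among them the low JAG1 level after NR4A1 WT relative to GFP. Their own differences are therefore described with their standard errors (SE). Calls and adjusted p-values of these probe sets, where given below, are descriptions and not tests. The cells were Kasumi-1, an acute myeloid leukemia (AML) cell line that carries the AML-ETO fusion oncogene. They were electroporated with in vitro transcribed mRNA and lysed 6 h later. NR4A1 WT cells (3 arrays) received mRNA of the wild type orphan nuclear receptor. NR4A1 CEAA cells (2 arrays) received a form altered in a zinc finger of the DNA binding domain, a change known to abolish DNA binding. GFP cells (3 arrays) received mRNA of green fluorescent protein as the control. The brightest probe set of NR4A1 itself averaged 6.54 in NR4A1 WT, 6.54 in NR4A1 CEAA and 6.45 in GFP cells, with overlapping arrays and no call against GFP (adjusted p = 0.654 and 0.637, limma). Where its probes lie relative to the coding sequence of the transfected mRNA is not known here, so this level does not check the labels. All groups shared the cell line, the electroporation and an exogenous mRNA, and all came from 1 line, so other AML cells were not sampled. The question that the groups address is which transcripts depend on NR4A1 and on its DNA binding domain.

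Notch receptors are cut at the cell surface when a Jagged or Delta-like ligand on a neighboring cell binds them. ADAM proteases and then gamma-secretase release the intracellular domain, which enters the nucleus, joins the DNA binding protein RBPJ and a Mastermind-like coactivator, and turns on repressor genes of the HES and HEY families. In blood formation the pathway is best known for directing lymphoid progenitors to the T cell fate, and its activity in myeloid leukemia depends on the context.

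The arrays measure RNA of the whole culture as log2 intensity of each probe set, so fewer cells that express a gene and less RNA per cell cannot be told apart. Array medians lay between 4.755 and 4.802. No detection call was used, and a level under the median is not shown to be above background. This held on all 8 arrays for 12 of the 28 probe sets, while 15 were above the median on all arrays and 1 was mixed. Probe sets differ in affinity, so levels of different genes are not compared as amounts. The SD of the differences between 2 arrays across all probe sets was 0.158 to 0.227 within groups. Between groups it was 0.291 to 0.314 for NR4A1 WT and GFP, and 0.276 to 0.302 for NR4A1 CEAA and GFP. For NR4A1 WT and NR4A1 CEAA it was 0.344 to 0.390. All 7 measured markers of 8 listed for myeloid blasts were above the median on all arrays, and their mean was 9.12 to 9.18 in NR4A1 WT, 9.34 to 9.35 in NR4A1 CEAA and 9.24 to 9.35 in GFP cells. Against GFP 2 of them were called lower and 1 higher after NR4A1 WT, and 1 lower and 2 higher after NR4A1 CEAA. Of 8 measured markers of 10 listed for other cells, 5 were above the median on all arrays, EPCAM among them at 11.4 to 11.9. That list averaged 5.86 to 5.91 in NR4A1 WT, 5.95 to 6.06 in NR4A1 CEAA and 5.97 to 6.03 in GFP cells, with 0 markers past the limma threshold against GFP after either construct. In the direct comparison 3 blast markers (KIT, RUNX1T1 and SPI1) and 3 of the other-cell markers (MS4A1, VWF and EPCAM, by -0.38, -0.26 and -0.35) were lower in NR4A1 WT than in NR4A1 CEAA, MS4A1 being under the array median throughout. Of all genes by their brightest probe sets, 8.03% were called lower and 7.48% higher after NR4A1 WT against GFP. After NR4A1 CEAA the shares were 9.57% and 5.2%, and in the direct comparison 11.5% and 15.6%. The part of cell composition in the results below was not tested. No source states whether replicates of a group were cultured apart, and p-values cover no more than the scatter among these arrays.

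Promoters of 8 of the 10 genes could be read from RefSeq (build GRCh38.p14), 12 promoters in all, as the 250 bases before and 50 bases after each transcription start. DLL1 and HEY1 were not among them. Both strands were searched for 3 motifs: the NR4A response element AAAGGTCA (NBRE), the RBPJ core TGGGAA and the ETS core CCGGAA. The last 2 share the letters GGAA but cannot match at the same position of a strand. The 250 bases before the start are shown for JAG1, the gene that differed most, and for HES1, the best known target of the pathway, with the RBPJ core in capitals. The JAG1 bases lie at chr20:10674000-10674249 on the minus strand and the HES1 bases at chr3:194135898-194136147 on the plus strand, both 5′ to 3′.
JAG1: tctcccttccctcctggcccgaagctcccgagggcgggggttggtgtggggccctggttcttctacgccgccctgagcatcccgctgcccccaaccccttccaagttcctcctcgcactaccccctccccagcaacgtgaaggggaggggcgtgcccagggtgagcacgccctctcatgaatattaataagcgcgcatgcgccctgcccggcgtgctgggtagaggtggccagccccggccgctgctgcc
HES1: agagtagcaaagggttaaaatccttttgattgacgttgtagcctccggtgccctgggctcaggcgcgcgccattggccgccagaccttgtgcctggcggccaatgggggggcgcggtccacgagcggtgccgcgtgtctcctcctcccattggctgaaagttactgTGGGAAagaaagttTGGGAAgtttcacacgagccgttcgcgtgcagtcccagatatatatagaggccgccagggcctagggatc
The RBPJ core stood 2 times in the HES1 promoter, at 84 and 70 bases before the start on the plus strand, and also in 1 of the 5 RBPJ promoters. Of all 35116 promoters of this length, 24.0% held it. The NBRE stood in 0 of the 12 promoters (1.22% of all promoters) and the ETS core likewise in 0 (17.2% of all promoters). The JAG1 promoter held none of the 3 motifs, hence no capitals. A match is only a match of letters, and a missing one says nothing of sites outside the window.

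JAG1 encodes Jagged 1, a transmembrane ligand that binds Notch receptors on neighboring cells. Its brightest probe set, 209099_x_at, read 6.92, 6.67 and 6.71 on the NR4A1 WT arrays, 8.77 and 8.46 on the NR4A1 CEAA arrays, and 8.50, 8.53 and 8.51 on the GFP arrays. Every NR4A1 WT array lay below every other array, and the NR4A1 CEAA arrays fell on either side of the GFP arrays. The difference of NR4A1 WT from GFP was -1.75 (log2, SE 0.10), a 3.36-fold lower level, that of NR4A1 CEAA from GFP was 0.10 (SE 0.11), and that of NR4A1 WT from NR4A1 CEAA was -1.85 (SE 0.11). A second probe set, 216268_s_at, gave 6.49, 6.32 and 6.11 in NR4A1 WT, 8.72 and 8.71 in NR4A1 CEAA, and 8.37, 8.37 and 8.22 in GFP cells. Here the groups separated fully, with NR4A1 WT lowest and NR4A1 CEAA highest. Its differences were -2.01 (SE 0.10) for NR4A1 WT from GFP, 4.03-fold lower, and 0.40 (SE 0.11) for NR4A1 CEAA from GFP.

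The other 4 JAG1 probe sets were dimmer and did not all move the same way. Probe set 231183_s_at read 4.21, 4.65 and 4.26 in NR4A1 WT cells, under the array median, against 5.09, 5.38 and 5.02 in GFP cells, with 5.52 and 5.21 in NR4A1 CEAA cells. That is a difference of -0.79 (SE 0.15) for NR4A1 WT and 0.20 (SE 0.16) for NR4A1 CEAA from GFP. Probe set 209098_s_at, below the median on all arrays, read 3.56, 3.45 and 3.45 in NR4A1 WT, 4.23 and 4.50 in NR4A1 CEAA, and 3.92, 4.19 and 4.23 in GFP cells. It again had all NR4A1 WT arrays below the others, at -0.63 (SE 0.10) from GFP. By contrast 229924_s_at overlapped between all groups, at 0.06 (SE 0.10) for NR4A1 WT and -0.03 (SE 0.11) for NR4A1 CEAA from GFP, and so did NR4A1 WT and GFP in the dim 209097_s_at, at -0.17 (SE 0.09). The 4 probe sets with lower values include both of the brightest ones. Which transcript ends the 6 probe sets read was not analysed here.

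**Figure D1:**
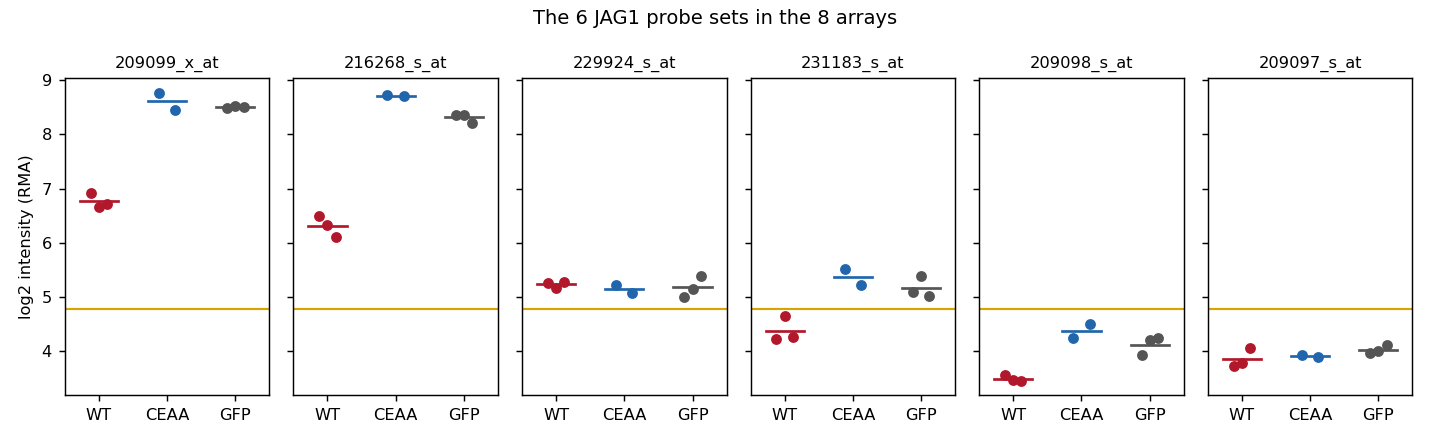
Log2 intensity of the 6 JAG1 probe sets on the 3 NR4A1 WT (WT), 2 NR4A1 CEAA (CEAA) and 3 GFP arrays; points are arrays, short bars are group means, and the line across each panel lies at the array medians. The WT arrays sit below the others in 4 panels, at -1.75 and -2.01 from the GFP mean in the 2 brightest, and overlap with GFP in 229924_s_at and 209097_s_at.

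JAG2 encodes the second Jagged ligand. Its brighter probe set, 32137_at, read 6.48, 6.74 and 6.56 in NR4A1 WT, 6.88 and 6.78 in NR4A1 CEAA, and 7.08, 7.08 and 7.03 in GFP cells. The 3 groups did not overlap and NR4A1 CEAA stood between the others. NR4A1 WT differed from GFP by -0.47 (SE 0.08), a 1.39-fold lower level, and NR4A1 CEAA by -0.24 (SE 0.09). In the second probe set, 209784_s_at, the groups overlapped (-0.21, SE 0.10, for NR4A1 WT and -0.08, SE 0.12, for NR4A1 CEAA from GFP). DLL1, a Delta-like ligand, was below the array median in both probe sets on all arrays, between 4.04 and 4.61, with overlapping groups.

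NOTCH1, the receptor with the leading role in T cell development, read 7.71, 7.82 and 7.64 in NR4A1 WT, 7.89 and 8.0 in NR4A1 CEAA, and 8.04, 8.15 and 8.05 in GFP cells in probe set 218902_at. As for JAG2, the groups did not overlap and NR4A1 CEAA lay in between. The differences from GFP were -0.36 (SE 0.07) for NR4A1 WT, 1.28-fold lower, and -0.13 (SE 0.08) for NR4A1 CEAA. The other NOTCH1 probe set, 223508_at, was under the median on all arrays and overlapped, at -0.05 (SE 0.08) for NR4A1 WT. NOTCH2, a receptor of many tissues that directs marginal zone B cells, had 4 probe sets. The brightest, 202443_x_at, ran from 5.80 to 6.02 in NR4A1 WT, from 6.00 to 6.13 in NR4A1 CEAA and from 5.87 to 6.03 in GFP cells, and the groups overlapped. In 212377_s_at the NR4A1 CEAA arrays stood highest, at 5.14 and 5.37, against 4.76, 4.91 and 4.79 in NR4A1 WT and 4.98, 4.85 and 5.05 in GFP cells. This gave 0.30 (SE 0.10) for NR4A1 CEAA from GFP and -0.44 (SE 0.10) for NR4A1 WT from NR4A1 CEAA. NOTCH2 has closely related partial copies in the genome, and how far its probe sets read them was not tested. NOTCH3, a receptor best known from vascular smooth muscle, overlapped between all groups in both probe sets, with differences from GFP between -0.07 and 0.09.

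RBPJ, the DNA binding partner of the cleaved receptors, was bright in 2 probe sets. Probe set 211974_x_at read 11.40, 11.56 and 11.46 in NR4A1 WT, 11.39 and 11.38 in NR4A1 CEAA, and 11.42, 11.48 and 11.49 in GFP cells. All arrays thus lay between 11.38 and 11.56, and the difference of NR4A1 WT from GFP was 0.01 (SE 0.07). In 207785_s_at the same difference was -0.13 (SE 0.08), and in 229540_at, dim on all arrays, it was -0.17 (SE 0.12). MAML2, a Mastermind-like coactivator of the complex, was under the median on all arrays in both probe sets. In 235106_at it read 3.33, 3.60 and 3.45 in NR4A1 WT, 3.05 and 2.95 in NR4A1 CEAA, and 3.27, 3.32 and 3.38 in GFP cells. The NR4A1 CEAA arrays were lowest, by -0.32 (SE 0.09) from GFP, at a level not shown to be above background. The other MAML2 probe set differed from GFP by -0.03 (SE 0.10) after NR4A1 WT and by 0.01 (SE 0.11) after NR4A1 CEAA.

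HES1, the repressor gene most often used as a readout of Notch activity, had 3 probe sets. The brightest, 203395_s_at, read 5.72, 5.95 and 5.43 in NR4A1 WT, 5.90 and 5.96 in NR4A1 CEAA, and 6.14, 5.67 and 6.26 in GFP cells. The NR4A1 WT and GFP arrays overlapped and were scattered widely (SD 0.26 and 0.31), and the difference was -0.33 (SE 0.17). Probe set 203394_s_at read 5.59, 5.89 and 5.58 in NR4A1 WT, 5.35 and 5.37 in NR4A1 CEAA, and 6.04, 5.87 and 5.57 in GFP cells. In this one NR4A1 CEAA lay below all other arrays, by -0.47 (SE 0.14) from GFP, while NR4A1 WT overlapped with GFP at -0.14 (SE 0.13). The dim 203393_at differed from GFP by 0.10 (SE 0.06) after NR4A1 WT and by -0.01 (SE 0.07) after NR4A1 CEAA. The 3 HES1 probe sets thus put the groups in different orders. HEY1, a related repressor gene, was under the median on all arrays in both probe sets, with overlapping groups and differences from GFP between -0.08 and 0.09.

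**Figure D2:**
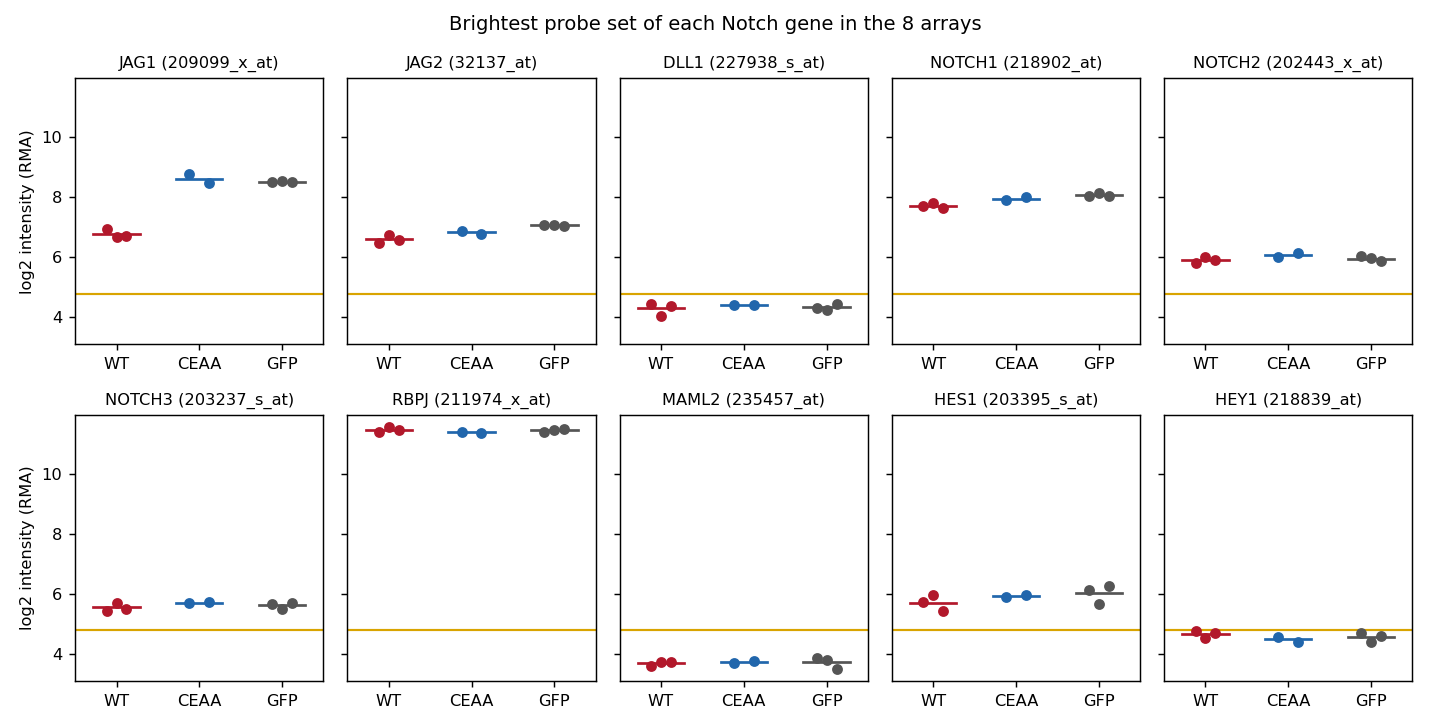
Log2 intensity of the brightest probe set of each of the 10 Notch genes on the 3 NR4A1 WT (WT), 2 NR4A1 CEAA (CEAA) and 3 GFP arrays; points are arrays, short bars are group means, and the line across each panel lies at the array medians. The WT mean lies at -1.75 from the GFP mean for JAG1, at -0.47 for JAG2 and at -0.36 for NOTCH1, and the other 7 genes overlap between WT and GFP.

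Of the 28 probe sets, 6 passed a Benjamini-Hochberg adjusted p of 0.05 in limma as lower in NR4A1 WT than in GFP cells, namely 4 of JAG1 and 1 each of JAG2 and NOTCH1, and 0 as higher. Over all probe sets 5.56% were called lower and 5.06% higher in this comparison. Since the genes were chosen with these values known, nothing is read from the counts or adjusted p-values given here. NOTCH1 lost its place in it without GFP replicate 2 (adjusted p = 0.0622, limma). The methods' Rank Product test counted the same 4 JAG1 probe sets and neither JAG2 nor NOTCH1. Against GFP, NR4A1 CEAA had 1 probe set called higher (216268_s_at of JAG1) and 0 lower, beside 5.91% and 6.81% of all probe sets. That call was lost in 6 of the 8 fits that left out an array (adjusted p of 0.0603 to 0.204, limma), all but those without NR4A1 WT replicate 1 or 3. Without GFP replicate 3 the sole call was a lower one, 203394_s_at of HES1 (-0.60), and without NR4A1 WT replicate 2 it was 235106_at of MAML2 (-0.32), so the direction of the count rests on single arrays. Between NR4A1 WT and NR4A1 CEAA, 5 were called lower (4 of JAG1 and 212377_s_at of NOTCH2) and 1 higher (235106_at of MAML2), beside 10.9% and 11.2% of all probe sets. The NOTCH2 and MAML2 calls were lost without NR4A1 CEAA replicate 2 (adjusted p = 0.120 and 0.0645, limma). The median over the 28 probe sets was -0.07 for NR4A1 WT from GFP and -0.01 for NR4A1 CEAA from GFP, against 0.00 and -0.01 over all probe sets. Both comparisons use the same GFP arrays. Outside JAG1, the differences of the 22 probe sets from GFP ran from -0.47 to 0.18 after NR4A1 WT and from -0.47 to 0.30 after NR4A1 CEAA. A difference of at least 0.5 from GFP occurred in 4 probe sets after NR4A1 WT, all of JAG1, and in 0 after NR4A1 CEAA.

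**Figure D3:**
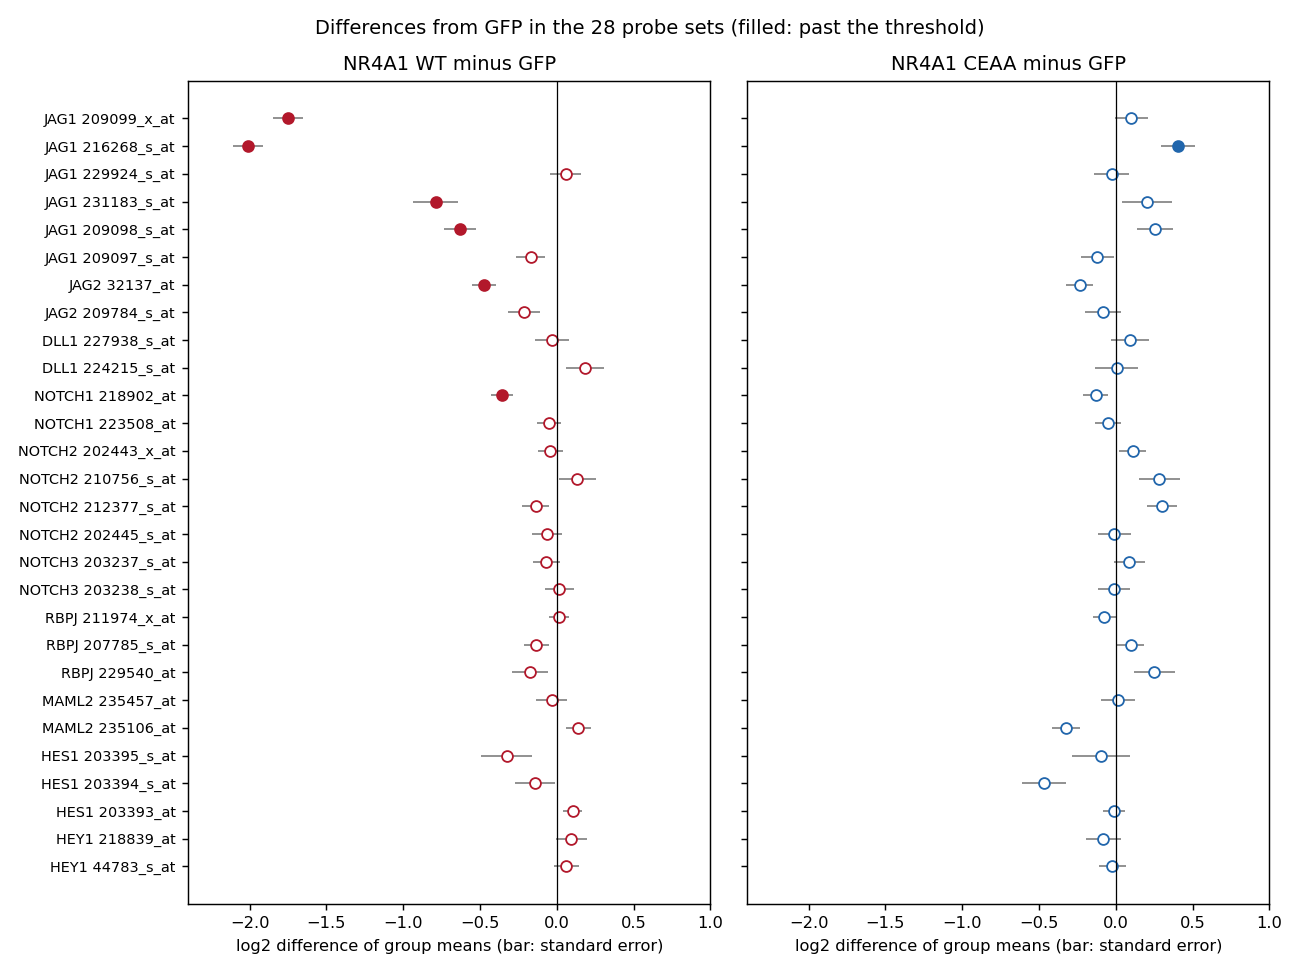
Difference of group means from GFP (log2, x axis) for each of the 28 probe sets, NR4A1 WT in the left panel and NR4A1 CEAA in the right; bars are standard errors of the limma fit and filled points had an adjusted p under 0.05, shown as a description. The JAG1 probe sets reach -2.01 on the left, and all other genes lie between -0.47 and 0.30 in both panels.

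Likeness to JAG1 was measured as the root mean square distance between brightest probe sets over the 8 arrays, each gene taken relative to its GFP mean. The nearest of 19774 other genes were NOG at 0.152, STC2 at 0.152, JCAD at 0.160, BCL2 at 0.162 and FOSL2 at 0.184. NOG encodes the BMP antagonist noggin, STC2 a secreted stanniocalcin, JCAD an endothelial junction protein, BCL2 an inhibitor of apoptosis and FOSL2 a subunit of the AP-1 factor. NOG read 8.36, 8.13 and 8.25 in NR4A1 WT, 10.20 and 10.08 in NR4A1 CEAA, and 9.82, 9.88 and 9.81 in GFP cells. BCL2 read 6.59, 6.53 and 6.73 in NR4A1 WT, 8.28 and 8.27 in NR4A1 CEAA, and 8.12, 8.27 and 8.19 in GFP cells. All 5 genes had every NR4A1 WT array below every GFP array, which the measure of likeness favors. Of the other 9 Notch genes and the feedback inhibitor NRARP, NRARP came nearest, at place 63 (distance 0.454). JAG2 followed at place 703, NOTCH1 at 1133 and HES1 at 1547. From the pathway list below only NRARP was ranked, so it is not shown to be the nearest gene of that list.

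The rest of the pathway was taken from a list of 66 further genes in 9 roles, of which 61 were measured and 5 were not analysed here. The list was written with earlier results known, MYC and IL7R among them, and each gene was followed by its brightest probe set. After NR4A1 WT 12 of the 61 fell and 6 rose against GFP (limma, adjusted p under 0.05 over all probe sets), beside 8.03% lower and 7.48% higher of all 19775 genes. After NR4A1 CEAA 8 fell and 7 rose, beside 9.57% and 5.2%. Directly compared, 16 were lower and 13 higher in NR4A1 WT than in NR4A1 CEAA, beside 11.5% and 15.6%. The median difference of the 61 genes was -0.04 for NR4A1 WT and 0.00 for NR4A1 CEAA from GFP, against 0.00 and -0.03 over all genes. Leaving out GFP replicate 1 reduced the 18 calls after NR4A1 WT to 11. The 15 calls after NR4A1 CEAA became 3 and 5 when replicate 1 or 2 of that group was left out, and 9 without GFP replicate 1 or 3. Rank Product called 8 after NR4A1 WT (NRARP, MYC, IL7R, HES6, DLK1, APH1B, NEURL1B and TLE1) and 1 after NR4A1 CEAA (FURIN).

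**Figure D4:**
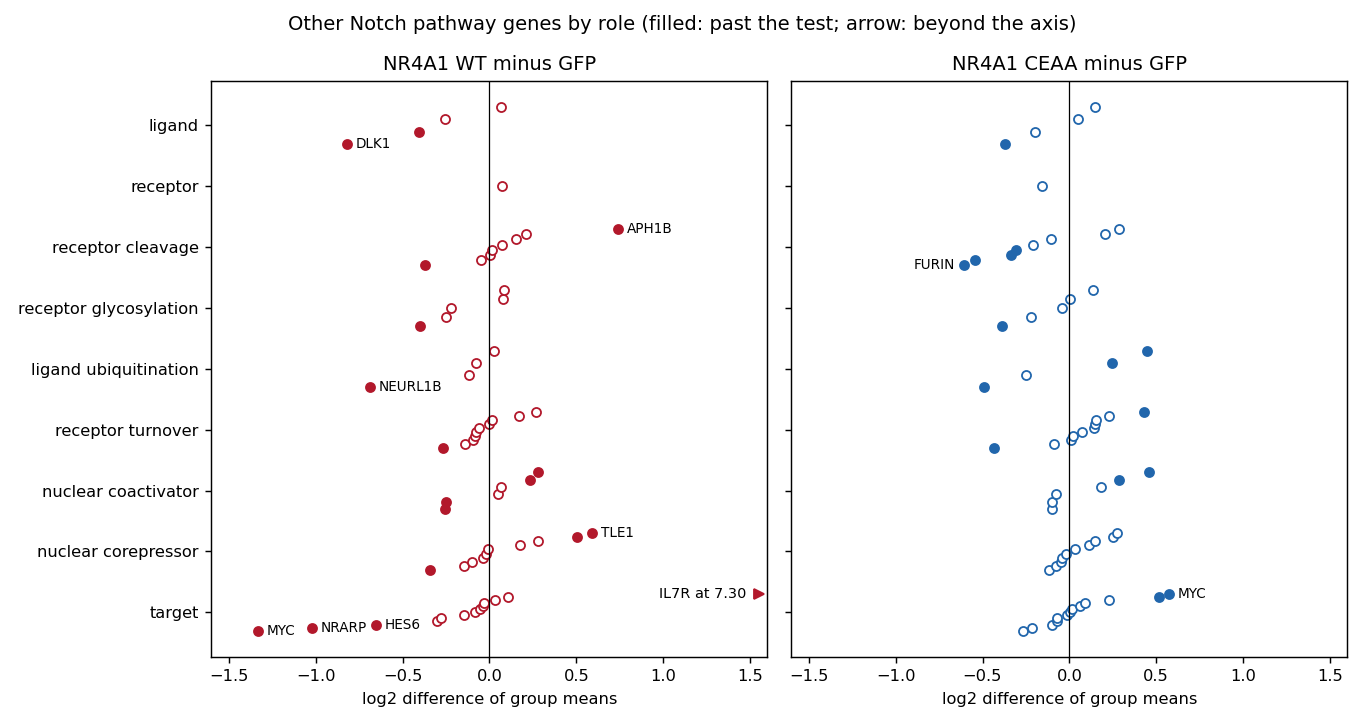
Difference of group means from GFP (log2, x axis) of the 61 other Notch pathway genes by role, NR4A1 WT in the left panel and NR4A1 CEAA in the right; each point is a gene, filled where it passed limma's adjusted p of 0.05, and the arrow marks IL7R beyond the axis at 7.30. Under NR4A1 WT the targets MYC and NRARP lie lowest at -1.33 and -1.02, and under NR4A1 CEAA the lowest is FURIN at -0.61.

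Among 13 genes listed as targets, HES6 included, 3 fell and 1 rose after NR4A1 WT, and 0 fell and 2 rose after NR4A1 CEAA. NRARP, a direct Notch target that dampens the signal, read 7.80, 7.60 and 7.51 in NR4A1 WT, 8.93 and 8.84 in NR4A1 CEAA, and 8.59, 8.68 and 8.71 in GFP cells. It fell by 1.02 against GFP after NR4A1 WT (SE 0.08, adjusted p = 0.000124, limma) and did not pass after NR4A1 CEAA (0.23, adjusted p = 0.169, limma), and NR4A1 WT was below NR4A1 CEAA by -1.25 (adjusted p = 5.9e-05, limma). MYC, a growth-promoting transcription factor and a Notch target in T cell leukemia, read 10.24, 10.23 and 10.18 in NR4A1 WT, 12.11 and 12.14 in NR4A1 CEAA, and 11.52, 11.59 and 11.55 in GFP cells. The 3 groups separated, with a fall of 1.33 after NR4A1 WT (SE 0.06, adjusted p = 3.72e-06, limma) and a rise of 0.57 after NR4A1 CEAA (SE 0.07, adjusted p = 0.0014, limma). IL7R, the interleukin 7 receptor chain that Notch induces in T cell progenitors, went the other way. It read 11.14, 11.25 and 11.24 in NR4A1 WT, 3.96 and 4.05 in NR4A1 CEAA, and 3.86, 3.98 and 3.90 in GFP cells, the last 2 groups under the array median. Its rise of 7.30 after NR4A1 WT (SE 0.07, adjusted p = 3.05e-10, limma) starts from a level not shown to be above background. MYC and IL7R were listed with earlier results of these arrays known, so their p-values are descriptions and not tests. HES6, a HES family member that opposes HES1, was counted with the listed targets, but whether Notch induces it was not tested. It was chosen for mention after its values were seen, so its p-value too is a description. HES6 fell by 0.65 after NR4A1 WT (SE 0.08, adjusted p = 0.000812, limma) and differed by -0.02 after NR4A1 CEAA. The growth factor receptor gene IGF1R rose by 0.52 after NR4A1 CEAA (SE 0.12, adjusted p = 0.0283, limma), a call lost without GFP replicate 1 or 3 or either NR4A1 CEAA replicate. Its probe set 203628_at also rose after NR4A1 CEAA, by 0.64 (adjusted p = 0.00309, limma), while 203627_at, 208441_at and 243358_at did not pass. HES5 and HEY2, further HES and HEY genes, were under the median on all arrays.

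**Figure D5:**
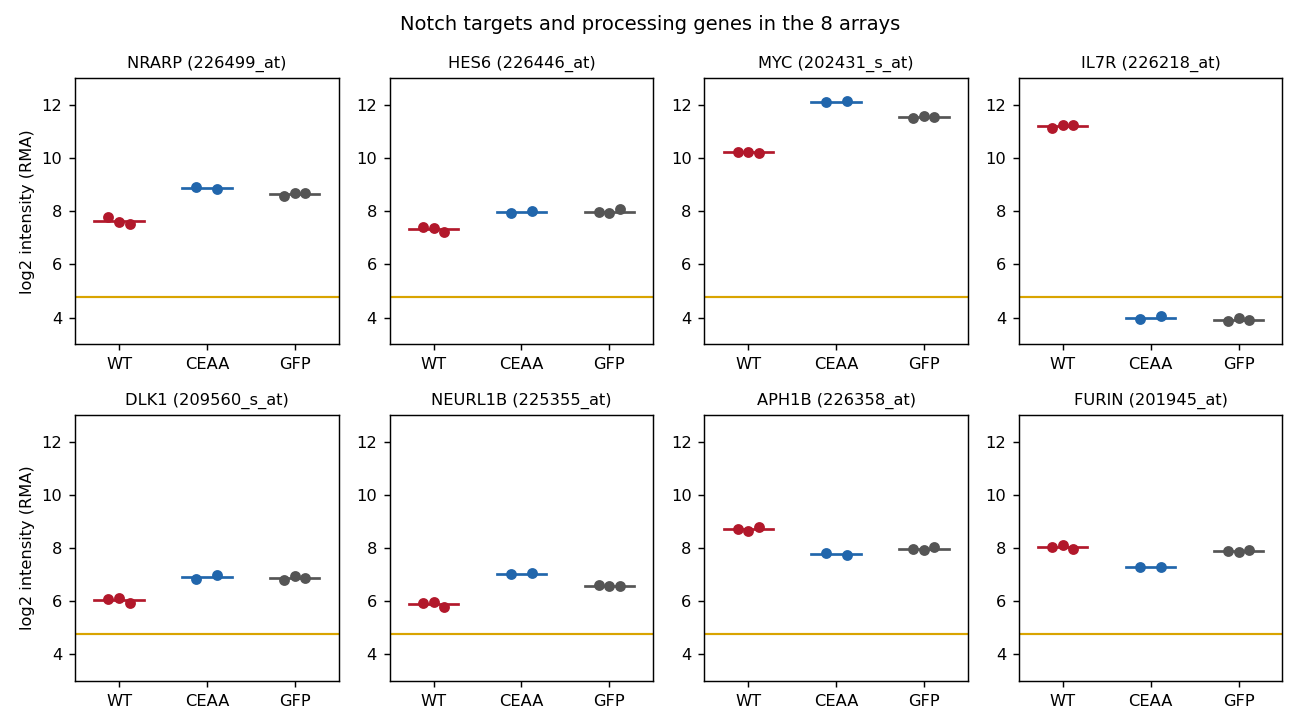
Log2 intensity of 8 other Notch pathway genes, 4 genes listed as targets in the upper row and 4 genes of ligand or receptor handling in the lower, on the 3 NR4A1 WT (WT), 2 NR4A1 CEAA (CEAA) and 3 GFP arrays; points are arrays, short bars are group means, and the line across each panel lies at the array medians. NRARP, HES6, MYC, DLK1 and NEURL1B are lower and IL7R and APH1B higher in WT than in GFP, while FURIN is lower in CEAA.

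Of 4 further ligand genes, 2 fell after NR4A1 WT and 1 after NR4A1 CEAA. DLK1, a Delta-like protein without the receptor binding domain of the classical ligands, read 6.07, 6.11 and 5.94 in NR4A1 WT, 6.85 and 6.97 in NR4A1 CEAA, and 6.78, 6.94 and 6.86 in GFP cells. It fell by 0.82 after NR4A1 WT (SE 0.08, adjusted p = 0.000222, limma), was 0.05 above GFP after NR4A1 CEAA, and did not pass in its other, dim probe set. DLL3, a Delta-like protein that acts within the cell that makes it, fell by 0.41 after NR4A1 WT (SE 0.10, adjusted p = 0.0379, limma). Its 3 other probe sets did not pass, and the call was lost in 7 of the 8 fits without 1 array, all but that without NR4A1 WT replicate 2 (adjusted p of 0.0668 to 0.114, limma). DLL4, the ligand of endothelium and thymus, fell by 0.37 after NR4A1 CEAA (SE 0.10, adjusted p = 0.048, limma). That call was lost in 6 such fits, all but those without NR4A1 WT replicate 2 or 3 (adjusted p of 0.0628 to 0.221, limma). The receptor gene NOTCH4 did not pass against GFP after either construct.

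Of 8 genes of receptor cleavage, 1 rose and 1 fell after NR4A1 WT and 4 fell after NR4A1 CEAA. In the direct comparison 6 were higher and 2 lower in NR4A1 WT than in NR4A1 CEAA, beside 15.6% and 11.5% of all genes, and nothing particular to the list is read from this count. Rank Product kept 2 of these 8 direct calls, FURIN and APH1B. The 4 falls after NR4A1 CEAA became 2 without either NR4A1 CEAA replicate. ADAM17 was lost in both cases (adjusted p of 0.0645 and 0.111, limma), and APH1A also without any 1 GFP array (adjusted p of 0.0538 to 0.113, limma). Both of the 2 other APH1A probe sets were called lower after NR4A1 CEAA too, and neither of the 2 other ADAM17 probe sets was. APH1B, a subunit of gamma-secretase, read 8.73, 8.65 and 8.79 in NR4A1 WT, 7.81 and 7.73 in NR4A1 CEAA, and 7.97, 7.93 and 8.04 in GFP cells. It rose by 0.74 after NR4A1 WT (SE 0.07, adjusted p = 0.000209, limma), and its other probe set also rose, by 0.65, and fell by 0.37 after NR4A1 CEAA. FURIN, the protease that first cuts the receptor in the secretory pathway, read 8.03, 8.13 and 7.97 in NR4A1 WT, 7.28 and 7.28 in NR4A1 CEAA, and 7.90, 7.86 and 7.91 in GFP cells. The fall of 0.61 after NR4A1 CEAA (SE 0.07, adjusted p = 0.00167, limma) had no counterpart past the test after NR4A1 WT (0.15, adjusted p = 0.196, limma), and the groups differed directly by 0.76 (adjusted p = 0.000166, limma). PSENEN, the smallest gamma-secretase subunit, fell by 0.54 after NR4A1 CEAA (SE 0.07, adjusted p = 0.00266, limma) and differed by 0.01 after NR4A1 WT. PSEN2, a catalytic subunit, fell by 0.37 after NR4A1 WT (SE 0.08, adjusted p = 0.0214, limma). Its call was lost without GFP replicate 1 or 3 or NR4A1 WT replicate 1 or 2 (adjusted p of 0.0653 to 0.0816, limma), and 1 of its 2 other probe sets fell as well, by 0.48. Of the 8 direct calls, 3 were lost without single arrays, in genes chosen for mention, like APH1A, after their values were seen. ADAM17 was lost without NR4A1 CEAA replicate 1 (adjusted p = 0.0638, limma), and the gamma-secretase subunit gene NCSTN without either NR4A1 CEAA replicate or NR4A1 WT replicate 1 (adjusted p of 0.0537 to 0.112, limma). ADAM10 was lost without these 3 arrays, GFP replicate 1 or NR4A1 WT replicate 3 (adjusted p of 0.0522 to 0.176, limma).

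Genes that modify receptors and ligands passed in each of their 3 roles. MFNG, a Fringe glycosyltransferase that alters which ligands a receptor answers to, fell by 0.40 after NR4A1 WT (SE 0.06, adjusted p = 0.00349, limma) and by 0.39 after NR4A1 CEAA (SE 0.07, adjusted p = 0.00863, limma), and the fall after NR4A1 CEAA was lost without NR4A1 CEAA replicate 1 (adjusted p = 0.0838, limma). It was the 1 gene of 5 in receptor glycosylation past the test against GFP after either construct, and its probe sets differed. A second MFNG probe set fell by 1.35 after NR4A1 CEAA, neither of the 2 others passed after NR4A1 WT (adjusted p = 0.0608 and 0.927, limma), and both were higher in NR4A1 WT than in NR4A1 CEAA, by 0.93 and 0.37, where the brightest differed by -0.01. Of 4 genes of ligand ubiquitination, 1 fell after NR4A1 WT, 1 fell and 2 rose after NR4A1 CEAA, and 2 were lower and 1 higher in NR4A1 WT than in NR4A1 CEAA. The 3 calls after NR4A1 CEAA became 0 and 1 without replicate 1 or 2 of that group, and 2 without any 1 GFP array or NR4A1 WT replicate 3. NEURL1B, a ubiquitin ligase of Notch ligands, read 5.95, 5.97 and 5.76 in NR4A1 WT, 7.01 and 7.05 in NR4A1 CEAA, and 6.62, 6.57 and 6.55 in GFP cells. It fell by 0.69 after NR4A1 WT (SE 0.07, adjusted p = 0.000455, limma) and rose by 0.45 after NR4A1 CEAA (SE 0.08, adjusted p = 0.00917, limma), the rise being lost without either NR4A1 CEAA replicate (adjusted p of 0.0653 and 0.0784, limma). Its relative NEURL1 fell by 0.49 after NR4A1 CEAA (SE 0.08, adjusted p = 0.00564, limma), a call lost without NR4A1 CEAA replicate 1 (adjusted p = 0.0615, limma) and absent in its other, dim probe set. MIB1, a further ligase of Notch ligands chosen for mention after its values were seen, rose by 0.24 after NR4A1 CEAA (SE 0.07, adjusted p = 0.0423, limma), which was lost in 6 of the 8 fits without 1 array, all but those without NR4A1 WT replicate 1 or 2 (adjusted p of 0.0531 to 0.242, limma). Among the 3 other MIB1 probe sets, 2 were also called higher after NR4A1 CEAA. Of 10 genes of receptor turnover, 1 fell after NR4A1 WT, and 1 fell and 1 rose after NR4A1 CEAA. The Deltex ubiquitin ligase gene DTX4 fell by 0.27 after NR4A1 WT (adjusted p = 0.0234, limma), which was lost without any 1 GFP array or NR4A1 WT replicate 1 or 2 (adjusted p of 0.0514 to 0.0948, limma). After NR4A1 CEAA the second Deltex gene DTX2 fell by 0.44 (adjusted p = 0.0112, limma) and NUMBL, a relative of the Notch inhibitor NUMB, rose by 0.43 (adjusted p = 0.0138, limma). Both were lost without either NR4A1 CEAA replicate (adjusted p of 0.0583 and 0.101 for DTX2, 0.0631 and 0.116 for NUMBL, limma), and the other NUMBL probe set did not pass.

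Nuclear cofactors moved in both directions. Of 10 corepressor genes, 1 fell and 2 rose after NR4A1 WT and 0 passed after NR4A1 CEAA. TLE1, a Groucho family corepressor that HES proteins recruit, read 8.72, 8.78 and 8.71 in NR4A1 WT, 8.08 and 8.17 in NR4A1 CEAA, and 8.10, 8.13 and 8.21 in GFP cells. It rose by 0.59 after NR4A1 WT (SE 0.06, adjusted p = 0.000535, limma), as did 2 of its 4 other probe sets. TLE4, of the same family, rose by 0.50 (SE 0.06, adjusted p = 0.00114, limma). The 4 further TLE4 probe sets did not pass after NR4A1 WT, and 2 of them rose after NR4A1 CEAA. CTBP2, a corepressor that can dock on RBPJ complexes, fell by 0.34 after NR4A1 WT (SE 0.06, adjusted p = 0.00995, limma), as did 3 of its 5 other probe sets. Of 6 coactivator genes, by their brightest probe sets, 2 fell and 2 rose after NR4A1 WT, and 0 fell and 2 rose after NR4A1 CEAA, all by less than 0.5. MAML3, a relative of MAML2, fell by 0.25 (adjusted p = 0.0312, limma) and the acetyltransferase gene KAT2A by 0.26 (adjusted p = 0.0229, limma) after NR4A1 WT. The MAML3 probe sets 207946_at and 228508_at did not pass after NR4A1 WT (adjusted p = 0.0632 and 0.154, limma). After NR4A1 CEAA, 207946_at fell by 0.51 (adjusted p = 0.00921, limma), where the brightest differed by 0.18. KAT2B rose by 0.28 both after NR4A1 WT (adjusted p = 0.0295, limma) and after NR4A1 CEAA (adjusted p = 0.0418, limma). EP300, the acetyltransferase p300, rose by 0.46 after NR4A1 CEAA (SE 0.10, adjusted p = 0.0233, limma), as did its other probe set, by 0.48. The 5 coactivator calls named so far in brightest probe sets did not hold without some single arrays. Nor did the second rise after NR4A1 WT, that of MAML1 by 0.23 (adjusted p = 0.0434, limma), chosen for mention after its values were seen. It was lost without any 1 of the 8 arrays. MAML3 was lost without any 1 of the 8 arrays except GFP replicate 3 (0.0578 to 0.119), and KAT2A without any 1 GFP array or NR4A1 WT replicate 3 (0.0512 to 0.0851, adjusted p, limma). KAT2B was lost, after either construct, in all fits but those without GFP replicate 2 or NR4A1 WT replicate 2 (0.0517 to 0.109 after NR4A1 WT and 0.0505 to 0.230 after NR4A1 CEAA, adjusted p, limma). EP300 was lost without GFP replicate 1 or 3 or either NR4A1 CEAA replicate (0.0734 to 0.157, adjusted p, limma).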

How the data were processed

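Kasumi-1 cells were profiled on Affymetrix human genome U133 Plus arrays 6 h after electroporation. The authors deposited log2 intensities per probe set, computed with RMA Express (Robust Multiarray Analysis: background correction, quantile normalization and a summary over the probes). They were used as given. The scale was checked on the values. Genes were named from the platform annotation, using probe sets with exactly 1 symbol. The 71 genes followed all matched RefSeq gene identifiers. All 54613 probe sets on 8 arrays were fitted by group with limma 3.58.1 in R 4.3.3 (lmFit, eBayes, 3.69 prior degrees of freedom), and p-values were Benjamini-Hochberg adjusted over all probe sets at 0.05. The fit was tested on simulated data. The members and lists were chosen with earlier results of these data known. Genes named by rule are all members, the 5 nearest to JAG1 and, per role among those past the test, up to 3 with the largest difference after NR4A1 WT and 2 after NR4A1 CEAA. Further pathway genes were named outside this rule. These are HES6, MIB1, MAML1, APH1A, ADAM10, ADAM17 and NCSTN, and also NOTCH4, HES5 and HEY2. Rank Product, the methods' test (q under 0.05, 100 permutations), was an alternative, as were leaving out each array, a stricter adjusted p of 0.01, a replicate block, an intensity trend, a fit on the 2 groups alone, renewed quantile normalization, and testing without dim probe sets, on single-symbol probe sets or on the brightest per gene. No arrays were left out of the fit reported.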

Additional observations from a re-analysis of the deposited data

How the results depend on the processing

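The 75 calls in the 28 probe sets and the 61 pathway genes gave 1047 differences under the alternatives that estimate one, and 0 changed sign. Part of these could not change. The filter on dim probe sets, the intensity trend and the fits on 2 groups or on single-symbol probe sets repeat the same difference of group means. Leaving out an array of the third group repeats it too. The JAG1 difference of its brightest probe set stayed between -1.83 and -1.70 for NR4A1 WT from GFP and between -2.00 and -1.69 for NR4A1 WT from NR4A1 CEAA with any 1 array left out, and between -0.054 and 0.26 for NR4A1 CEAA from GFP. Of 342 values for the other 9 genes under alternatives, 339 moved by less than 1 SD and 3 by more (JAG2 for NR4A1 CEAA from GFP at -0.28 and -0.19 without NR4A1 CEAA replicate 1 or 2, and RBPJ at -0.03 after quantile normalization again). The 339 include values that repeat the main difference by construction, so their number does not measure stability. Counts of calls depended more on the setting. Of the 28 probe sets, with 6, 1 and 6 called (NR4A1 WT with GFP, NR4A1 CEAA with GFP, and the 2 constructs with each other, in this order throughout), leaving out 1 array gave 5 to 7, 0 to 2 and 4 to 7, and testing the brightest probe set of each gene gave 3, 0 and 1 of 10. Rank Product gave 0 for NR4A1 CEAA against GFP and 2 for NR4A1 WT against NR4A1 CEAA. The 1 higher call for NR4A1 CEAA against GFP (JAG1) became 3 of 16 with the filter on dim probe sets (2 higher, and HES1 203394_s_at lower), 2 with an intensity trend (1 higher, and the same HES1 probe set lower), 2 with only the 2 groups or with probe sets of 1 symbol (1 higher, and MAML2 235106_at lower), and 0 at an adjusted p under 0.01. Of the 61 pathway genes, with 18, 15 and 29 called, leaving out 1 array gave 11 to 15, 3 to 15 and 20 to 28, and Rank Product gave 8, 1 and 5. An adjusted p under 0.01 gave 11 for NR4A1 WT and 6 for NR4A1 CEAA against GFP, and the filter gave 24 of 53 for NR4A1 CEAA against GFP. Over all probe sets 10.6%, 12.7% and 22.1% were called, against 7.06% to 9.39%, 3.35% to 13.3% and 12.8% to 21.7% with 1 array left out, 27.8%, 33.3% and 46.5% with the filter, 2.91%, 1.94% and 2.44% by Rank Product, and 5.59%, 4.74% and 13.1% at 0.01. The filter and the stricter threshold test fewer probe sets or ask more of each, and otherwise the cause was not tested.

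The labels number the replicates of each group, but same-numbered arrays did not deviate together (r from -0.0285 to 0.0634 across probe sets), and 1 of the 6 NR4A1 WT and GFP arrays correlated best with its own number. With the replicate block, NR4A1 CEAA against GFP had 8 of 61 pathway genes called and 7.30% of all probe sets, and the other counts stayed within 1.5 times. Of the 28 probe sets that fit also called 1 for NR4A1 CEAA against GFP, but the JAG1 call was lost and the one made was HES1 203394_s_at, at -0.56 from GFP. Levels near the array median and the 2 or 3 arrays of a group limit what can be read of dim probe sets.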

Other observations

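One further probe set, 227067_x_at, is annotated to NOTCH2 together with its partial copies and was kept out of the 28 for that reason. It read 5.91, 5.56 and 5.87 in NR4A1 WT, 5.79 and 5.68 in NR4A1 CEAA, and 5.91, 5.98 and 5.93 in GFP cells. All arrays of NR4A1 WT and NR4A1 CEAA lay below those of GFP, with differences of -0.16 (SE 0.10) and -0.20 (SE 0.11), and neither passed the test (adjusted p = 0.371 and 0.268, limma).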
